A study of Mus musculus with 6 samples.

Results

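The genes described here encode mitochondrial ribosomal proteins. They were chosen by name as every gene symbol in the count table that starts with Mrpl or Mrps followed by a digit, which gave 77 of 35976 genes: 48 Mrpl genes, named for the large ribosomal subunit, and 29 Mrps genes, named for the small one. All 77 passed the filter on low counts, as did 14879 genes in all, and their raw counts lay between 159 and 3740 per library. RNA came from mouse hearts of wild-type genotype in both groups. The edited hearts (3 libraries) had received AAV-MYL2-TadA8e-Sauri-U6-Camk2d sgRNA7. This is an adeno-associated virus in which a MYL2 promoter, a promoter of ventricular heart muscle, precedes an adenine base editor built from the deaminase TadA8e and the Cas9 Sauri, and a U6 promoter precedes a guide RNA against a splice site of Camk2d. The control hearts (3 libraries) were untreated, so virus, editor and edit were absent from them together and cannot be told apart in this comparison. The labels give neither age nor sex. Nothing in them states that replicates were separate animals; a p-value then covers only the variation among the libraries, which may be technical. Each library is called a heart for short.

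The mitochondrial ribosome translates the few proteins that mitochondrial DNA encodes, all of them subunits of the respiratory chain and of ATP synthase. Its RNAs come from mitochondrial DNA, but every protein in it is encoded in the nucleus, made in the cytosol and imported. The large subunit joins amino acids and releases the growing chain through a tunnel at the inner membrane, and the small subunit reads the messenger RNA. Heart muscle is dense in mitochondria and depends on this supply.

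Total counts ran from 17062412 to 23097998 per library. Camk2d, the targeted gene, stood at 226, 220 and 224 CPM (the count per 1e+06 counts of the library, adjusted by edgeR's TMM factors) in controls 1, 2 and 3 and at 138, 130 and 164 CPM in edited hearts 1, 2 and 3. Its log2 change was -0.63 (SE 0.07, n = 3 per group, adjusted p = 4.76e-04, edgeR's quasi-likelihood test with Benjamini-Hochberg adjustment over all tested genes). Of all tested genes, 705 were called lower in edited hearts at an adjusted p under 0.05, which is 4.74%, and 733 were called higher, which is 4.93%. Without control 1, control 3 or edited 3, 368, 198 and 328 genes were called lower. Markers of atrial muscle differed between libraries in a way the labels do not give: the summed level of 7 of them, Myl7 and Nppa leading, was 47.7 CPM in control 1 and 26.0 CPM in control 3, against 1936 CPM in control 2 and 1227 to 2802 CPM in edited hearts. Among them Bmp10 was at or near 0 in every library but control 2. Controls 1 and 3 therefore stood apart from the other 4 libraries in this respect.

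The 77 genes lie on 17 chromosomes, with the most on chromosome 11 (10 genes) and chromosome 17 (8 genes). Of the 77, 34 (44.2%) have the start of another gene on the opposite strand within 1000 bases, beside 3695 of 14877 tested genes with a single start (24.8%). Promoters from RefSeq (build GRCm38.p6, 250 bases before to 50 after a start) could be matched by symbol for 68 of the 77 genes, with 74 promoters among them. Those without an entry were Mrpl4, Mrpl13, Mrpl15, Mrpl19, Mrpl38, Mrpl54, Mrps28, Mrps34 and Mrps35. The 74 promoters were searched on both strands for the letters that known regulators of nuclear genes for mitochondria prefer, and matches to different motifs may share bases. CCGGAAG, a sequence of the ETS family to which GABPA (NRF-2) belongs, was in 33.8% of the member promoters, beside 8.86% of all 32851 promoters and 15.6% of the promoters of tested genes. GCGC followed after any 2 bases by GCGC, the core of the site of NRF1, was in 18.9%, beside 6.23% and 11.8%. AAGATGG, a sequence bound by YY1, was in 17.6%, beside 6.34% and 6.66%. The letters of oestrogen-related receptors, AAGGTCA, were in 5.41% of member promoters, beside 4.72% and 3.29%. GGGCGG, bound by SP1, was in 52.7%, beside 35.7% and 59.2%, and TATAAA was in 6.76%, beside 13.6% and 7.42%. The promoters of 43 of the 68 genes held at least 1 of the ETS, NRF1 and YY1 sequences.

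The 4 promoter stretches below belong to members that were called lower in edited hearts. They are shown because they display these 3 kinds of sequence in the promoter window of genes whose values follow. Capitals mark the matched letters, each stretch is written 5′ to 3′ along the strand of its gene, and the coordinates are those of GRCm38.p6. The first 2 hold the ETS letters, Mrpl43 at 2 places, the next holds the NRF1 core, and the last holds the YY1 letters just inside the transcript.
Mrpl33 (chr5:31613831-31613970, plus strand): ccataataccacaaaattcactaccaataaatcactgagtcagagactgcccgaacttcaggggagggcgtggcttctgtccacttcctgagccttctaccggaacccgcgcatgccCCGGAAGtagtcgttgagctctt
Mrpl43 (chr19:45006423-45006562, minus strand): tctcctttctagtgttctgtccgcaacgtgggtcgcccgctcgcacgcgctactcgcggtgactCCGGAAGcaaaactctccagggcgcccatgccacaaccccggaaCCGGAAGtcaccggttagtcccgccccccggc
Mrpl44 (chr1:79775898-79776037, plus strand): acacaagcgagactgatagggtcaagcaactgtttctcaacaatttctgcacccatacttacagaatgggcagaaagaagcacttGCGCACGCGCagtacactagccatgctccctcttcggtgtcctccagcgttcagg
Mrpl42 (chr10:95501904-95501933, minus strand): cagattgaagcAAGATGGcgagcgcgcggt

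A match is a description of the letters and no measure of binding. The median log2 change between edited and control hearts was -0.15 for the 25 members with the ETS letters and -0.13 for the matched members without them. It was -0.14 and -0.13 with and without the NRF1 core, and -0.11 and -0.14 with and without the YY1 letters. The presence of a motif thus went with differences of a few hundredths in the median.

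The medians of the 2 subunits were similar, and single members ranged widely. Per kilobase of exon, the median over genes was 26.7 CPM per kb for Mrpl genes and 27.6 for Mrps genes, beside 5.3 CPM per kb over all tested genes. The highest levels per kb were those of Mrpl42 (224), Mrpl12 (146), Mrpl33 (106) and Mrps21 (93.4), and the lowest those of Mrps25 (3.87), Mrpl17 (4.94), Mrpl19 (5.25) and Mrps10 (5.45). Exon lengths in the deposited table are long for Mrps25 (6076 bases) and Mrpl17 (6712 bases) and short for Mrpl33 (466 bases), which enters these levels. Replicates lay close together: the median coefficient of variation over controls was 4.65% for members and 6.49% for all tested genes.

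In edited hearts the RNA of mitochondrial ribosomal proteins was slightly lower across the family. The log2 change was below 0 for 47 of 48 Mrpl genes and 27 of 29 Mrps genes, beside 7392 of 14879 tested genes (49.7%). Its median was -0.14 for Mrpl genes (interquartile range -0.18 to -0.10) and -0.13 for Mrps genes (-0.17 to -0.07), beside 0.00 for all tested genes. Most changes were small: 13 members were below -0.2, 41 lay between -0.2 and -0.1, 20 between -0.1 and 0, and 3 above 0. In bulk tissue, fewer cells of a type and less RNA per cell cannot be told apart. By edgeR's quasi-likelihood test, 10 members passed the adjusted threshold as lower (13.0%, beside 4.74% of all tested genes) and 0 as higher (beside 4.93%). At an unadjusted p under 0.05 there were 36 lower and 1 higher, beside 11.7% and 12.7% of all tested genes. Without control 1, control 3 or edited 3 it called 1 member, Mrpl33, beside 2.39%, 1.31% and 2.15% of all genes. Without control 2 it called 9 lower (11.7%, beside 3.91%) and 1 higher (beside 661 of 15155 genes). Without edited 1 it called 10 lower (13.0%, beside 5.04%), and without edited 2 it called 11 lower (14.3%, beside 4.82%). DESeq2's Wald test called 4 lower, beside 4.38% of all genes, and 0 higher. Limma voom called 25 lower, beside 7.96% of all genes, and 1 higher, beside 8.16%. The calls also depended on the scaling of libraries. Upper-quartile scaling called 3 members lower (3.9%, beside 3.57% of all genes), with a median of -0.11. Library totals without scaling factors called 2 lower (2.6%, beside 2.39%) and 1 higher (beside 8.84%), with a median of -0.06 for members and 0.07 for all tested genes. An offset for a trend on gene length called 6 lower (7.79%, beside 5.07%) and 1 higher (beside 5.12%). Under the first 2 of these settings the share of members called lower was near the background. So it was with DESeq2's test (5.19%, beside 4.38%) and with a block for the replicate number in edgeR (3.9%, beside 3.07%). Without control 1, control 3 or edited 3 the share was 1.3%, at or below the background. Every control lay above every edited library for 37 members, 26 Mrpl and 11 Mrps, beside 14.7% of all tested genes, and the reverse held for 0 members, beside 14.6%.

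**Figure D1:**
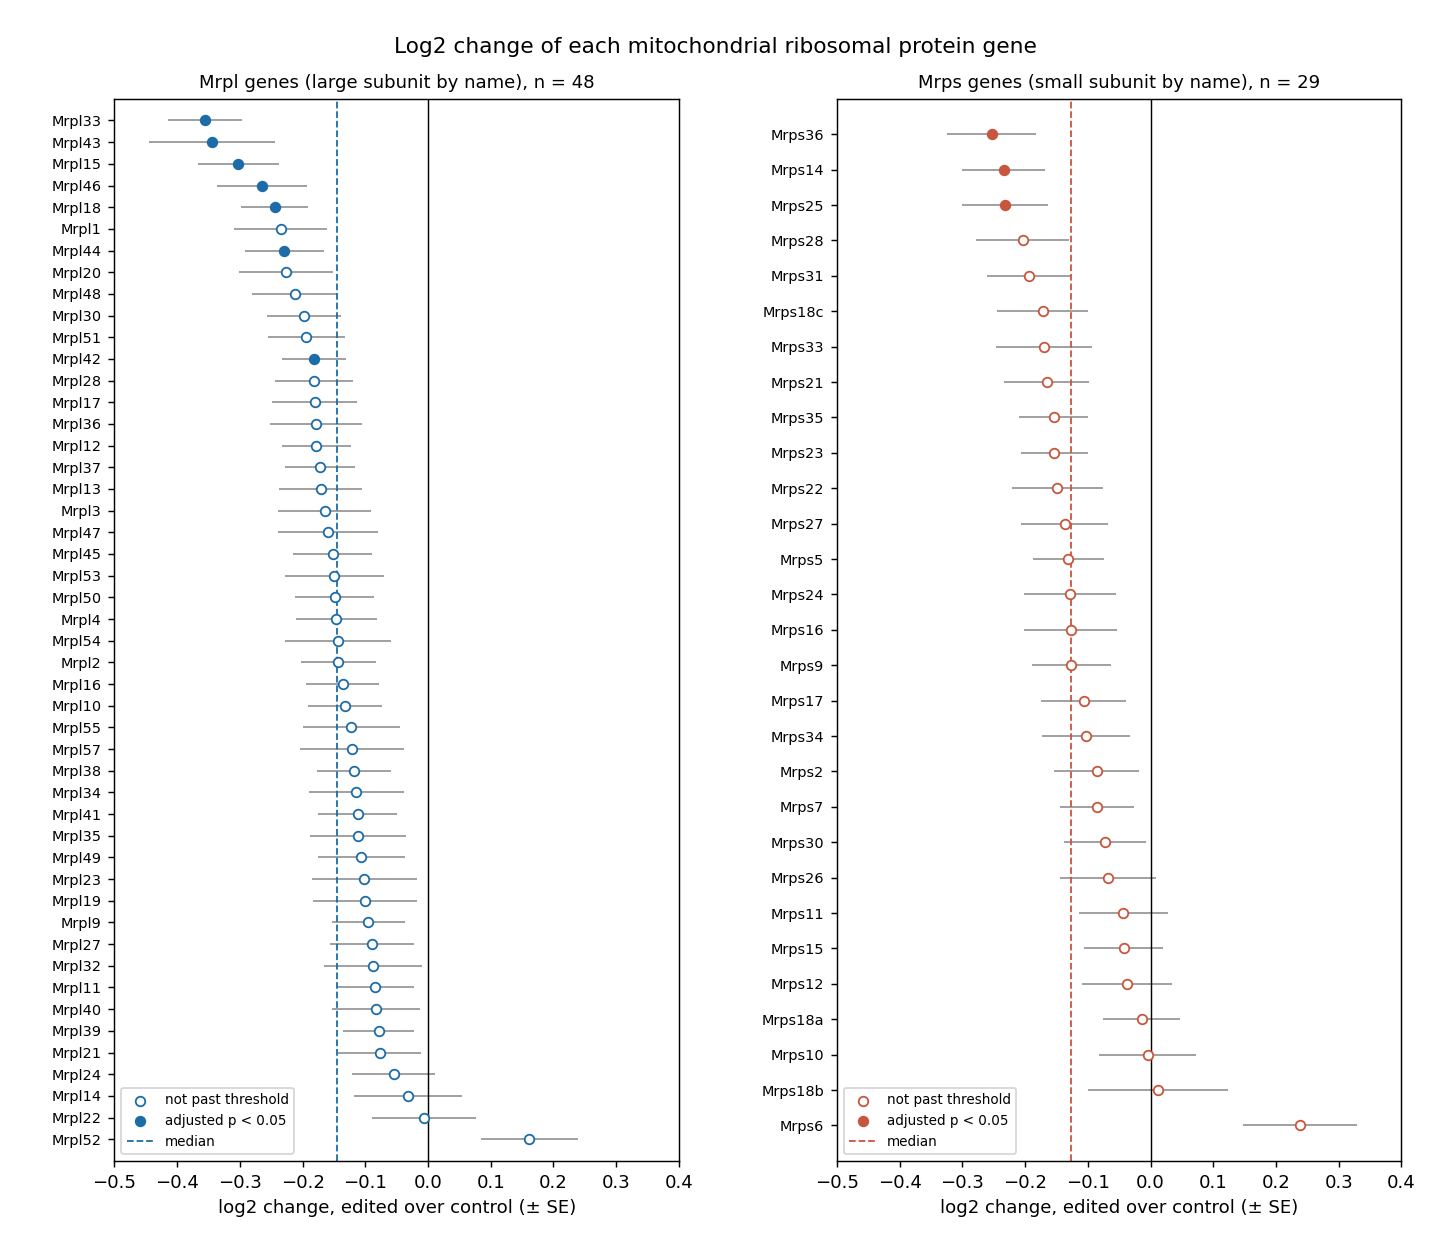
Log2 change of each of the 77 genes, edited over control (horizontal axis, points with bars of 1 SE), ordered within the Mrpl and the Mrps genes, with called genes filled and the median dashed. Of the points, 74 lie left of 0, and the 3 to the right are Mrpl52, Mrps6 and Mrps18b.

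The library medians show where the difference lay. Relative to the mean of the controls, the median member was at 0.03, -0.06 and 0.02 on the log2 scale in controls 1, 2 and 3 and at -0.13, -0.12 and -0.16 in edited hearts 1, 2 and 3. All 3 edited libraries were below all 3 controls, and control 2 was the nearest to them. Control 2 was the lowest control for 56 members (72.7%, beside 34.4% of all tested genes), control 1 the highest of all libraries for 39 (50.6%, beside 15.3%), and edited 3 the lowest of all for 30 (39.0%, beside 14.2%). With controls 1 and 3 left out, a choice made after seeing the data, the median over members was -0.08, 63 members were below 0, and edgeR called 0 members, beside 0.335% of all tested genes called lower; 7 members were lower and 0 higher at an unadjusted p under 0.05, beside 5.67% and 5.6% of all genes. With the log2 level of Myl7, an atrial light chain, as a covariate, also chosen after seeing the data, the median was -0.09, 61 members were below 0, and 0 were called, beside 0.551% of all genes; 8 were lower and 0 higher at an unadjusted p under 0.05, beside 6.44% and 6.23%. Summed markers of ventricular muscle, among them Myl2, Myh6 and Tnnt2, were at 70160 to 72830 CPM in controls and 59190 to 63080 CPM in edited hearts, and 4 of 6 were called lower. Summed markers of mesothelium were at 28.4 to 29.5 CPM in controls and 34.5 to 59.7 CPM in edited hearts, with 6 of 8 called higher and 1 lower. Those of dividing cells were at 197 to 243 CPM and 275 to 294 CPM, with 4 of 5 called higher. Over all tested genes edgeR called 4.74% lower and 4.93% higher. Ucp1, a marker of brown fat, was at 28.2 CPM in edited 2 and at or below 2.69 CPM in the other libraries. The lists for fibroblasts, endothelium, smooth muscle and macrophages held 0 called genes by edgeR's test on group alone over all 6 libraries. At most 2 of a list were at an unadjusted p under 0.05. With 4 to 6 tested genes per list, 0 calls is near the background. Without control 2 edgeR called 1 of 6 fibroblast genes higher, and with Myl7 as a covariate 1 macrophage gene lower. With the length trend offset it called 1 smooth muscle gene lower. DESeq2 called 1 smooth muscle gene lower, and limma voom 1 of smooth muscle and 1 of macrophages. Summed fibroblast markers were at 6003 to 7598 CPM in controls and 7097 to 9104 CPM in edited hearts. Beyond leaving out controls 1 and 3 and the Myl7 covariate, the part of these cell types in the result was not tested.

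**Figure D2:**
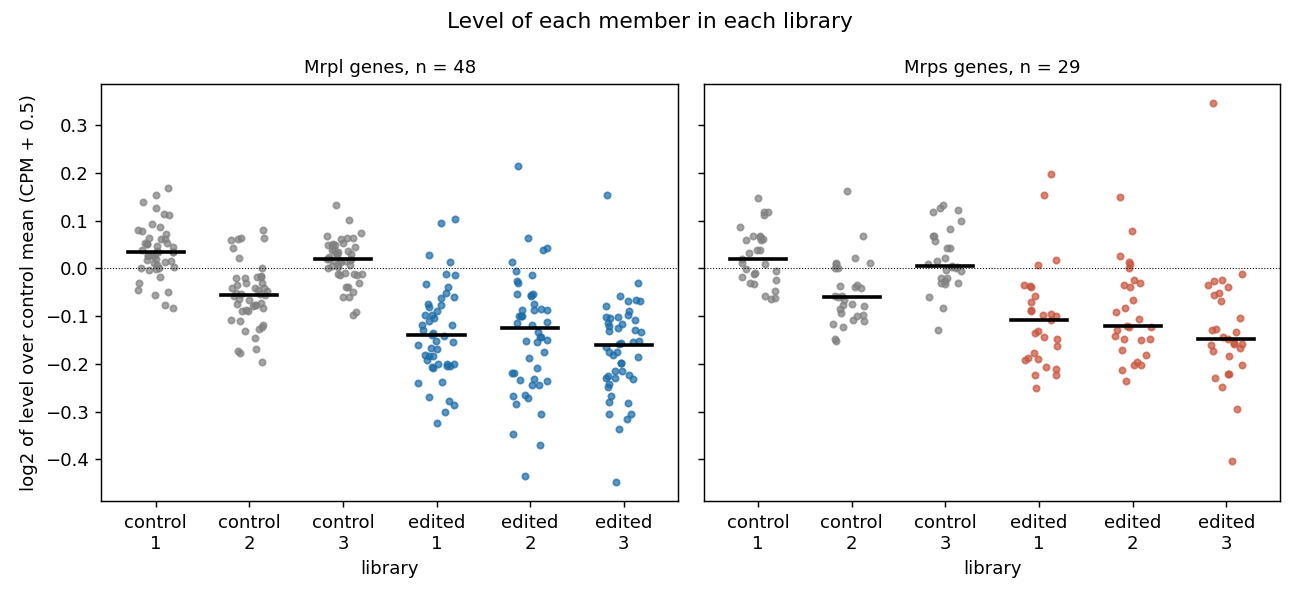
Log2 of each gene's level (CPM plus 0.5) over the control mean (vertical axis) in the 6 libraries (horizontal axis), for Mrpl genes on the left and Mrps genes on the right; points are genes and black lines are medians. The medians of both panels are lower in every edited heart than in every control, and control 2 is the lowest control.

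The large and the small subunit were compared through sums in each library. Summed over 48 genes, Mrpl RNA was 2407, 2266 and 2382 CPM in controls and 2117, 2124 and 2079 CPM in edited hearts, or 89.6% of the control mean. Summed over 29 genes, Mrps RNA was 1143, 1084 and 1139 CPM against 1037, 1046 and 1017 CPM, or 92.1%. Both sums were lower in every edited heart than in every control. The ratio of the Mrpl to the Mrps sum, from which library scaling cancels, was 2.106, 2.091 and 2.092 in controls and 2.041, 2.031 and 2.045 in edited hearts, a mean of 2.096 ± 0.00839 against 2.039 ± 0.00721 (SD, n = 3). The groups did not overlap, and the edited mean was 97.3% of the control mean. Highly expressed genes weigh most in this ratio, and no test of it was run. Called genes, all lower, made up 14.6% of Mrpl genes (7) and 10.3% of Mrps genes (3), beside 4.74% of all tested genes. The difference in the median between the subunits was not tested. As shares of all raw counts, without any scaling factor, the 77 genes took 0.348%, 0.326% and 0.342% in controls and 0.320%, 0.323% and 0.321% in edited hearts, so control 2 was then close to the edited libraries.

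Names and places differ for a few members. The products of Mrps18a and Mrps30 sit in the large subunit, and that of Mrps36 has been reassigned to the 2-oxoglutarate dehydrogenase complex of the citric acid cycle. Mrps18a was at 41.3, 40.0 and 43.7 CPM in controls and 42.2, 40.7 and 40.9 CPM in edited hearts, with a log2 change of -0.01 (adjusted p = 0.923, edgeR). Mrps30 changed by -0.07 (adjusted p = 0.55, edgeR), and neither passed the threshold. For a count by place, Dap3, Chchd1, Aurkaip1 and Ptcd3 were added to the small and Gadd45gip1 to the large subunit, with Ict1 counted in neither. Then 7 of 51 large (13.7%) and 3 of 30 small subunit genes (10%) were called lower, beside 4.74% of all tested genes. The large subunit genes with a bacterial counterpart (3 of 30 called, 10%, median -0.14) and those found only in mitochondria (4 of 20, 20%, median -0.15) had similar medians. The same held for the small subunit (1 of 16, 6.25%, median -0.12, and 1 of 10, 10%, median -0.15), where each share rests on 1 gene.

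Among large subunit genes, Mrpl33 had the smallest p. It encodes a small core protein of the large subunit with a bacterial counterpart and lies on chromosome 5 (31613951 to 31622644, plus strand), with the ETS letters printed above at its start. Its RNA was 56.0, 54.5 and 55.3 CPM in controls and 44.0, 40.8 and 44.7 CPM in edited hearts. The 2 groups were each tight and stood well apart. The log2 change was -0.36 (SE 0.06, adjusted p = 0.00246, edgeR's quasi-likelihood test with Benjamini-Hochberg adjustment), which leaves 78.2% of the control level (72.0% to 84.8% at 2 SE). Mrpl33 passed the threshold in every alternative planned, with adjusted p from 1.25e-05 to 0.0277, and in the scaling to library totals (0.00952). It missed it with controls 1 and 3 left out (log2 change -0.34, adjusted p = 0.188) and with Myl7 as a covariate (-0.35, adjusted p = 0.0837), so its size was nearly the same there.

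**Figure D3:**
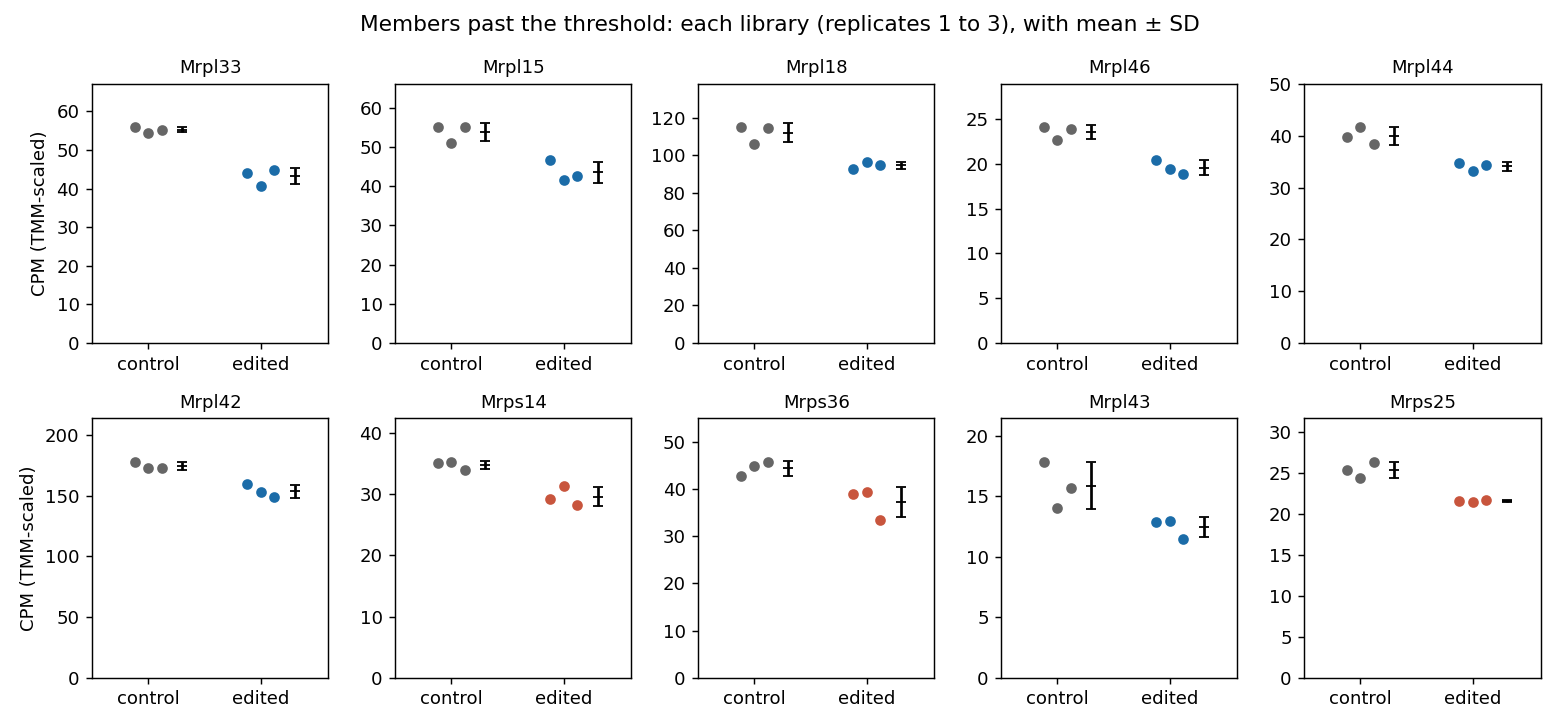
CPM of the 10 genes called lower (1 panel each, vertical axis from 0) in the control and edited libraries; points are libraries, and dashes with bars are the group mean and SD. In every panel the 3 edited points lie below the 3 control points.

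Mrpl15 and Mrpl18 also encode proteins shared with bacterial ribosomes. Mrpl15 (chromosome 1, 4773198 to 4785749, minus strand) was at 55.0, 51.1 and 55.1 CPM in controls and 46.6, 41.5 and 42.5 CPM in edited hearts, a log2 change of -0.30 (SE 0.06, adjusted p = 0.0101, edgeR). Mrpl18, whose product belongs to the central protuberance, a crest at the top of the large subunit (chromosome 17, 12911345 to 12916478, minus strand), was at 115, 106 and 115 CPM against 92.9, 96.3 and 94.6 CPM, a log2 change of -0.24 (SE 0.05, adjusted p = 0.0121, edgeR). Control 2 was the lowest control for both and still lay above every edited heart. Either call was lost without control 1, control 3 or edited 3: the adjusted p was then 0.0585, 0.085 and 0.0507 for Mrpl15 and 0.0607, 0.0976 and 0.059 for Mrpl18.

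Mrpl46, Mrpl44, Mrpl42 and Mrpl43 encode proteins that mitochondria added to the bacterial plan. Mrpl46, of the central protuberance (chromosome 7, 78775341 to 78783089, minus strand), was at 24.2, 22.7 and 23.9 CPM in controls and 20.5, 19.5 and 18.9 CPM in edited hearts (log2 change -0.27, SE 0.07, adjusted p = 0.0334, edgeR). Mrpl44, which has a fold related to RNase III (chromosome 1, 79776018 to 79781445, plus strand), was at 39.9, 41.8 and 38.4 CPM against 34.8, 33.2 and 34.4 CPM (-0.23, SE 0.06, adjusted p = 0.0357, edgeR). In neither gene did the groups overlap. Mrpl42, the highest member per kb (chromosome 10, 95480805 to 95501993, minus strand), was at 178, 173 and 173 CPM against 160, 153 and 149 CPM (-0.18, SE 0.05, adjusted p = 0.0379, edgeR). Mrpl43, on chromosome 19 (45005014 to 45006442, minus strand), was at 17.9, 14.0 and 15.7 CPM against 12.9, 12.9 and 11.5 CPM (-0.34, SE 0.10, adjusted p = 0.0462, edgeR). Its controls spread the most of the called large subunit genes. Of its exon bases 31.8% are shared with other genes, the most with Peo1 on the opposite strand, whose reads cannot be told apart without strand information. Each of the 4 calls was lost without control 1, control 3 or edited 3, with adjusted p of 0.113, 0.143 and 0.139 for Mrpl46, 0.1, 0.0843 and 0.0953 for Mrpl44, 0.133, 0.134 and 0.183 for Mrpl42, and 0.198, 0.158 and 0.167 for Mrpl43. Without control 2 the adjusted p was 0.0979 for Mrpl44 and 0.0602 for Mrpl42, and without edited 2 it was 0.0501 for Mrpl44.

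The functional centres of the large subunit shared the small difference. Their lists hold 4 to 7 genes each. Over all tested genes edgeR called 4.74% lower, and 11.7% were lower at an unadjusted p under 0.05, so 0 calls in a list this short is near the background. Near the peptidyl transferase centre, where peptide bonds form, edgeR called 0 of 4 genes (Mrpl2, Mrpl3, Mrpl16 and Mrpl27), with 3 at an unadjusted p under 0.05, and their median was -0.14. At the stalk that receives translation factors it called 0 of 5, with 2 at an unadjusted p under 0.05, and a median of -0.14. In either group DESeq2 called 0 genes and limma voom 1. Mrpl12, the stalk protein itself, was at 151, 139 and 152 CPM in controls and 129, 135 and 125 CPM in edited hearts, with no overlap, and missed the threshold (log2 change -0.18, SE 0.06, adjusted p = 0.0611, edgeR). Without control 2 or edited 2 it passed, with an adjusted p of 0.0379 and 0.0272. Around the exit of the peptide tunnel 1 of 7 was called, Mrpl44, and the median was -0.15. Mrpl22, which lines that tunnel, was the large subunit gene nearest to no change: 21.8, 19.6 and 21.2 CPM against 22.3, 21.1 and 18.8 CPM, a log2 change of -0.01 (SE 0.08). In the central protuberance 2 of 6 were called, Mrpl18 and Mrpl46, and the median was -0.17.

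Of the Mrps genes 3 were called, and 2 of them, Mrps14 and Mrps25, encode proteins of the small subunit. Mrps14, a protein of its head shared with bacteria (chromosome 1, 160195260 to 160201186, plus strand), was at 35.0, 35.3 and 34.0 CPM in controls and 29.2, 31.3 and 28.3 CPM in edited hearts (log2 change -0.23, SE 0.07, adjusted p = 0.0386, edgeR). Mrps25, found only in mitochondria (chromosome 6, 92169512 to 92184023, minus strand), was at 25.4, 24.4 and 26.4 CPM against 21.7, 21.5 and 21.7 CPM (-0.23, SE 0.07, adjusted p = 0.0481, edgeR). The edited libraries of Mrps25 were nearly equal, and 58.4% of its exon bases are shared with other genes, the most with Nr2c2 on the opposite strand. Mrps36, of the 2-oxoglutarate dehydrogenase complex (chromosome 13, 100735940 to 100744659, minus strand) was at 42.8, 44.9 and 45.9 CPM against 38.9, 39.5 and 33.6 CPM (-0.25, SE 0.07, adjusted p = 0.0393, edgeR). Mrps36 has 3 pseudogenes named after it in RefSeq. The count table holds 0 rows with such names, and how reads that match them were counted is not known. Without control 1, 2 or 3 the adjusted p was 0.112, 0.0875 and 0.113 for Mrps14, 0.124, 0.0543 and 0.217 for Mrps25, and 0.0808, 0.0843 and 0.182 for Mrps36. Without edited 3 it was 0.152 for Mrps14, 0.138 for Mrps25 and 0.162 for Mrps36. The calls of Mrps14 and Mrps25 were also lost without edited 1 (0.0824 and 0.0802), and that of Mrps25 without edited 2 (0.0646).

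No gene of the small subunit's decoding site (1 gene) or messenger RNA path (3 genes) was called by edgeR, DESeq2 or limma voom. Over all tested genes edgeR called 4.74% lower, and 11.7% were lower at an unadjusted p under 0.05. With so few genes, 0 calls is near the background and does not set these sites apart. Mrps12, the protein of the decoding site, was at 22.2, 21.2 and 21.8 CPM in controls and 20.3, 22.2 and 21.2 CPM in edited hearts (log2 change -0.04, SE 0.07), and the groups overlapped. Mrps5 was at 47.2, 46.6 and 45.9 CPM against 42.5, 42.5 and 42.5 CPM, without overlap (-0.13, SE 0.06, adjusted p = 0.169, edgeR). Of the genes along the messenger RNA path, Mrps2, Mrps5 and Mrps24, edgeR called 0 of 3, with 1 at an unadjusted p under 0.05, and the median was -0.13. Mrps10 was the small subunit gene nearest to no change, at 28.7, 24.5 and 26.1 CPM against 25.1, 27.9 and 26.0 CPM.

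The members above 0 were Mrps6, Mrpl52 and Mrps18b, and none of them passed edgeR's test with TMM scaling over all 6 libraries. Mrps6, a small subunit protein shared with bacteria, was at 17.9, 20.8 and 16.9 CPM in controls and 21.4, 20.6 and 23.7 CPM in edited hearts. Control 2 overlapped the edited hearts, and the log2 change was 0.24 (SE 0.09, adjusted p = 0.118, edgeR). Mrps6 passed as higher without control 2 (0.33, adjusted p = 0.0498, edgeR), with limma voom (adjusted p = 0.018) and in scaling to library totals (adjusted p = 0.0453, edgeR). With controls 1 and 3 left out, its log2 change was 0.07 (adjusted p = 0.867, edgeR). Mrps6 shares 18.6% of its exon bases with other genes, the most with Slc5a3, a myo-inositol transporter gene on the same strand. Slc5a3 was at 6.04, 6.16 and 5.27 CPM against 8.02, 7.35 and 7.26 CPM (log2 change 0.38, adjusted p = 0.0695, edgeR). Mrpl52 was at 21.8, 19.7 and 18.9 CPM against 21.7, 23.4 and 22.5 CPM (0.16, SE 0.08, adjusted p = 0.222, edgeR), and passed as higher with the length trend offset (0.25, adjusted p = 0.0456, edgeR). Mrps18b was at 0.01, and 64.9% of its exon bases are shared with other genes, the most with a gene on the opposite strand. In all, 18 members share some exon base with another gene, and 9 share over 10% of theirs.

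Genes that start on the opposite strand near a member's start lay on both sides of 0. Of 30 tested partners that are no members themselves, 16 were below 0 and their median was -0.02, beside -0.13 for the 34 members with a partner and -0.15 for the 43 without. Of these partners 2 were called lower, Peo1 beside Mrpl43 (log2 change -0.26, adjusted p = 0.0366, edgeR) and Ndufb5, a complex I gene, beside Mrpl47 (-0.26, adjusted p = 0.0116, edgeR). Higher were also 2, Ska3 beside Mrpl57 (0.54, adjusted p = 0.036, edgeR) and Ncapd2 beside Mrpl51 (0.21, adjusted p = 0.0459, edgeR), both genes of cell division. Over all tested genes 4.74% were called lower and 4.93% higher. The starts of Mrpl46 and Mrps11 are 42 bases apart on opposite strands, yet the log2 change was -0.27 for Mrpl46 and -0.04 for Mrps11 (SE 0.07 each). The call of Peo1 was lost without any 1 of the 6 libraries, with adjusted p of 0.0828, 0.0911 and 0.137 without controls 1, 2 and 3 and 0.0594, 0.0712 and 0.0622 without edited hearts 1, 2 and 3. Ndufb5 lost its call without control 1 (0.0725) or control 3 (0.085). Ska3 lost it without control 1, 2 or 3 (0.0568, 0.0853 and 0.183) and without edited 1 or 3 (0.0516 and 0.161), and Ncapd2 without control 2 or 3 (0.163 and 0.21) and edited 2 or 3 (0.0637 and 0.18). The partners were chosen by position, after the values of the members were known.

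**Figure D4:**
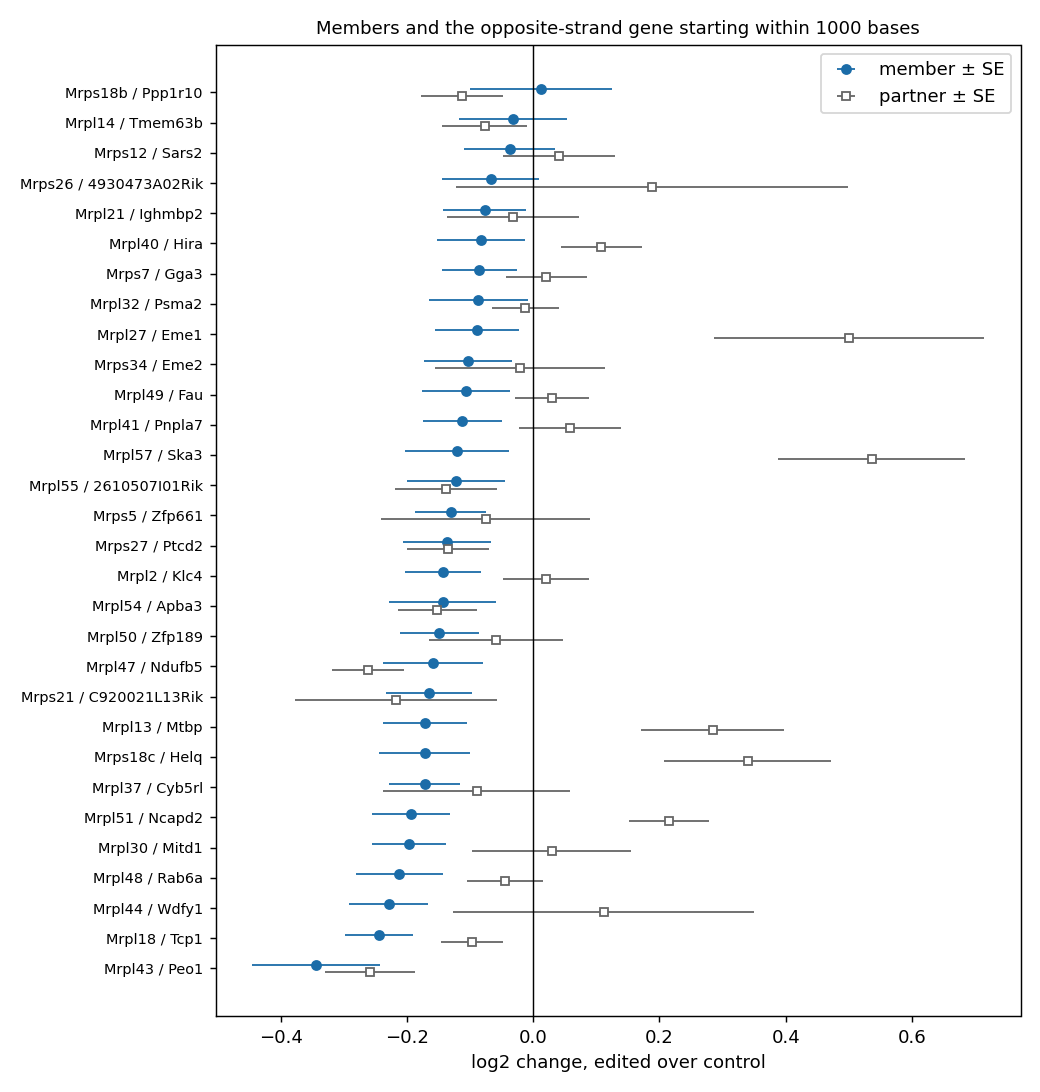
Log2 change, edited over control (horizontal axis), of each member (filled points) and of the tested gene whose start lies within 1000 bases on the opposite strand (open squares), 1 pair per line, with bars of 1 SE. The members lie left of 0 except Mrps18b, and the partners lie on both sides of 0.

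The other genes of mitochondrial translation are given from lists by function. Of 6 mitochondrial ribosomal subunits with other names 1 was called lower, Chchd1 of the small subunit (log2 change -0.26, adjusted p = 0.0323, edgeR), and the median was -0.15. Of 16 translation factors 3 were called lower, with a median of -0.13. They were the initiation factor Mtif2 (-0.26, adjusted p = 0.0182), the recycling factor Gfm2 (-0.20, adjusted p = 0.0344) and the peptide deformylase Pdf (-0.22, adjusted p = 0.0374), all by edgeR. Of 20 genes that charge mitochondrial transfer RNAs 1 was called lower, Qrsl1 (-0.25, adjusted p = 0.0369, edgeR), and the median was -0.07. Of 27 genes for ribosome assembly and ribosomal RNA modification edgeR called 0, with 4 lower and 1 higher at an unadjusted p under 0.05 and a median of -0.09; DESeq2 called 0 of them and limma voom 2. Of 19 genes for mitochondrial transcription and RNA processing 1 was called lower, Peo1, the mitochondrial DNA helicase Twinkle, with a median of -0.10. Of 23 TIMM and TOMM import genes 1 was called lower, Timm17a (-0.25, adjusted p = 0.00645, edgeR), with a median of -0.15. The shares called lower were 5.0% for transfer RNA charging, 5.26% for transcription and 4.35% for import, near the 4.74% of all tested genes, so a single call in these lists is at the background. No gene of these 6 lists was called higher by edgeR. Leaving out control 1, control 3 or edited 3 brought the translation factors from 3 calls to 0 each time, and leaving out control 2 brought them to 1. Without those libraries the adjusted p was 0.112, 0.152 and 0.0676 for Chchd1, and without control 1 and control 3 it was 0.11 and 0.176 for Qrsl1. Without edited 2 it was 0.0659 for Chchd1 and 0.0632 for Qrsl1, and without edited 3 0.142 for Qrsl1. Without edited 1, Pdf was at 0.0726. Timm17a passed without each library in turn.

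RNAs of the respiratory chain and of the cytosolic ribosome are given for comparison, and differences between these lists and the members were not tested. Nuclear genes for respiratory chain subunits, which join the products of mitochondrial translation in the same complexes, had a median log2 change of -0.19. Of these 76 genes 35 were called lower (46.1%), beside 4.74% of all tested genes. Without control 1, control 3 and edited 3 this count was 2, 0 and 11, beside 2.39%, 1.31% and 2.15% of all tested genes. Without control 2 it was 59, beside 3.91%. It was 22 with upper-quartile scaling (beside 3.57%) and 5 with library totals (beside 2.39%). The 13 protein genes of mitochondrial DNA, whose messages the ribosome reads, had a median of -0.41 and spread widely (interquartile range -1.33 to -0.17). Their summed level was 135600 to 142500 CPM in controls and 116000 to 133800 CPM in edited hearts. Of the 13 genes 6 were called lower (46.2%, beside 4.74% of all tested genes). Without control 3 this count was 3, beside 1.31% of all tested genes. Without edited 2 it was 2 (beside 4.82%), and without edited 1 it was 11 (beside 5.04%). Cytosolic ribosomal protein genes, from the other ribosome of the cell, had a median of 0.01. Of 84 genes 2 were called lower (2.38%, beside 4.74% of all tested genes): Rpl3l (-0.88), a striated muscle form, and Rpl7l1 (-0.24). The call of Rpl7l1 was lost when control 1, control 3 or edited 3 was omitted, with an adjusted p of 0.0597, 0.103 and 0.0749 in edgeR.

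**Figure D5:**
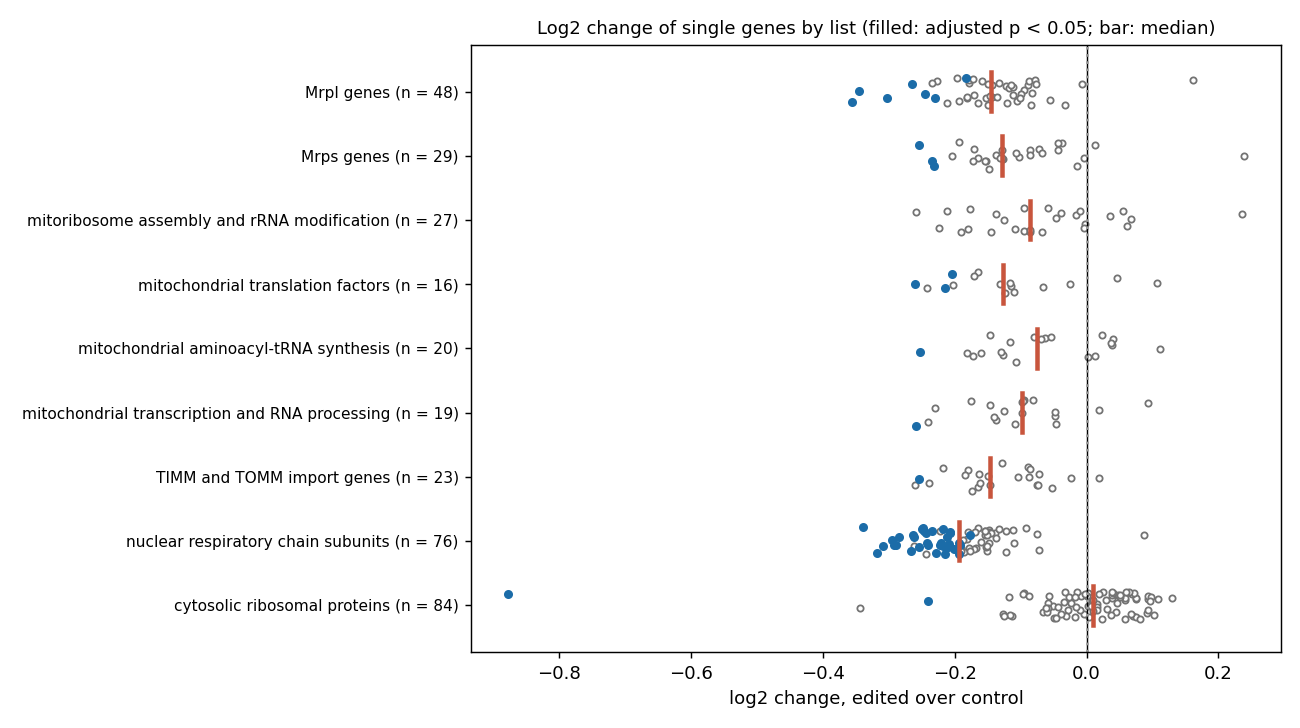
Log2 change, edited over control (horizontal axis), of every tested gene in 9 lists (points), with the list median (vertical bar) and called genes filled. Both mitochondrial ribosomal subunits centre between -0.1 and -0.2, respiratory chain genes near -0.2, and cytosolic ribosomal genes near 0.

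Regulators of nuclear genes for mitochondria were measured as a list of 11. Ppargc1a, the coactivator PGC-1alpha, was at 192, 164 and 201 CPM in controls and 109, 103 and 106 CPM in edited hearts, a log2 change of -0.81 (SE 0.07, adjusted p = 5.34e-05, edgeR). The groups were far apart, and control 2 was again the lowest control; the call held in every alternative run. Esrra, an oestrogen-related receptor, was at 147, 152 and 163 CPM against 127, 136 and 131 CPM (-0.23, SE 0.06, adjusted p = 0.0182, edgeR), and missed the threshold without control 3 (0.133) or edited 3 (0.0832). Its relative Esrrb was at 13.8, 13.0 and 13.9 CPM against 20.9, 15.0 and 19.8 CPM (0.46, SE 0.11, adjusted p = 0.0224, edgeR). Esrrb lost that call without control 1, 2 or 3 (0.0823, 0.0799 and 0.104) and without edited 1 or 3 (0.0564 and 0.0957). The factors whose letters were searched in the promoters showed log2 changes of -0.03 for Nrf1, -0.07 for Gabpa, -0.03 for its partner Gabpb1 and -0.05 for Yy1, none of them called. The rest of the list, also without a call, was Ppargc1b (-0.13), Pprc1 (-0.02), Esrrg (-0.03) and Myc (0.31, adjusted p = 0.153, edgeR).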

How the data were processed

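RNA was sequenced in 3 libraries from edited and 3 from untreated mouse hearts. The authors deposited raw counts of reads per gene, in 2 columns per library that were identical (0 values differed); 1 was used. The submitters' processing notes name STAR, featureCounts, cutadapt and FastQC and the build mm10. Settings, including strand and reads with several matches, are not given in the sources used. No replicates agreed within sampling noise (chi-square per degree of freedom 3.95 to 14.4).

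Genes were kept by edgeR's filterByExpr (14879), scaled by TMM factors and tested by the robust quasi-likelihood test of edgeR 4.0.16 (R 4.3.3) on group alone, with Benjamini-Hochberg adjustment over all tested genes, at a threshold of 0.05. Fold changes are log2, edited over control. The library profile uses log2 of CPM plus 0.5. With 3 against 3 libraries a permutation test cannot go below 0.1, so none was used. The steps were checked on simulated counts. Members and lists were chosen with earlier results of these data known. Named genes are, per subunit, up to 6 called members by p, the most and least changed, the highest and lowest per kb, members whose place differs from their name, up to 3 called genes of each other list, and all regulators. Others (Mrpl52, Mrps18b, Mrps5, Mrps11, Mrps12, Slc5a3, Ndufb5, Ska3 and Ncapd2, for example) were chosen after their values were seen. Alternatives were 2 other scalings, 2 filters, DESeq2 1.42.0, limma 3.58.1 (voom with quality weights), a replicate block, a length trend, a threshold of 0.01, leaving out each library, and dropping haemoglobin and mitochondrially encoded genes. The alternatives with controls 1 and 3 left out, Myl7 as a covariate and library totals were added after seeing the data.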

Additional observations from a re-analysis of the deposited data

How the results depend on the processing

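The family's direction did not depend on the settings tried, and the number of calls did: the median over members stayed between -0.16 and -0.06, and 61 to 75 of 77 members were below 0. Called Mrpl genes numbered 7 with all libraries, 3 with upper-quartile scaling, 13 without a filter, 4 with DESeq2's Wald test, 18 with limma voom, 2 with library totals, 1 at an adjusted p under 0.01, and 1 to 9 when 1 library was left out. Called Mrps genes numbered 3, and then 0 with upper-quartile scaling, 0 with DESeq2, 8 with limma voom (1 of them higher), 1 with library totals (higher), 0 at 0.01, and 0 to 2 when 1 library was left out. Without a filter 19.5% of members were called lower, beside 3.78% of all genes, and at 0.01 edgeR called 252 of 14879 genes lower. Leaving out controls 1 and 3 together gave 0 Mrpl and 0 Mrps calls, as did Myl7 as a covariate. The median log2 change of Mrpl genes was -0.0921 and -0.0916 in these and -0.0728 with library totals. That of Mrps genes was -0.0456, -0.0620 and -0.0554, and -0.0858 with the length trend. Over all tested genes, calls went from 1438 to 2239 without a filter, 2398 with limma voom, 503 at 0.01, 82 with controls 1 and 3 left out, 126 with Myl7 as a covariate, and 386 to 1661 when 1 library was left out. Library totals shifted the median of all genes to 0.07 and split the calls into 356 lower and 1316 higher, against 705 and 733; upper-quartile scaling gave 531 and 849. Camk2d stayed at -0.62 with controls 1 and 3 left out but missed the threshold (adjusted p = 0.0964, edgeR; 3.13e-19 to 0.00943 over the alternatives listed first). Same-numbered libraries of the groups showed no shared deviation (correlations across genes of 0.02, -0.10 and -0.08). The labels do not say whether the numbers pair libraries, and these values cannot decide it. With the replicate block 3 Mrpl and 0 Mrps genes were called, 3.9% of members beside 3.07% of all tested genes called lower. Apart from these, the cause of each difference was not tested.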
